A study of Mus musculus and Mus spretus with 72 samples.

Results

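Testis RNA of Mus spretus, a mouse species that separated from the house mouse lineage, was compared with testis RNA of 4 groups of house mouse. Arrays were chosen by the tissue and taxon in their titles, which gave 3 testis arrays of spretus and 21 of house mice, 24 of the 72 arrays of the series. The house mouse arrays comprised 6 of dom (Mus musculus domesticus), 6 of mus (M. m. musculus), 3 of cas (M. m. castaneus) and 6 of ssp, which the labels give as Mus musculus of a sub-species they do not name. All were males of roughly 12 weeks, and no treatment or transgene is named for any group. Every array set 1 mouse against the same kind of pool, testis RNA of 9 mice of the laboratory strain C57BL6. The series asks how far expression has moved apart at early and late stages of separation, and spretus stands for the late stage.

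The testis makes sperm in tubules in which spermatogonia divide, spermatocytes pass through meiosis, and haploid spermatids then pack their nuclei with protamines, build an acrosome and grow a tail. Sertoli cells inside the tubule nurse the germ cells, muscle-like cells surround it, and Leydig cells between the tubules make androgen. Genes used in the late steps of sperm formation are known for fast evolution among mammals, and many are used in no other tissue.

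All values below are differences or ratios on the log2 scale, with each array's median set to 0. A value of 1 stands for a doubling against the pool. The sources used here do not state the direction of the deposited ratio. It is taken as mouse over pool, so "higher" means likely higher in the mouse, and every sign would turn if the ratio had been inverted. The ratios give no absolute level, because both channels of an array held testis, so testis identity cannot be checked from markers. Between 42946 and 44716 of 46128 spots per testis array carried a value. Duplicate spots of an array correlated at 0.273 to 0.744, with a median of 0.571. For spretus against the mean of the 4 groups, standard errors had a median of 0.0941 over probes. They come from a spread pooled over all groups, not from the spretus arrays alone. Whole testis was measured, so fewer cells of a type and less RNA per cell cannot be told apart.

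The spretus arrays differed among themselves. Over all probes they correlated with each other at 0.372 to 0.531, against -0.0388 to 0.379 with house mouse arrays. Spretus 2 had wider values than spretus 1 and 3, with a standard deviation of 0.415 over probes against 0.289 and 0.288. Spretus 2 was also the array farthest from the house mouse mean in 1075 of the 1943 called probes that had all 3 spretus values, against 461 for spretus 1 and 407 for spretus 3. Counts are therefore also given without spretus 2, and calls of named genes that were lost without it are stated. All 3 spretus arrays lacked values on the same set of spots as the 3 cas arrays and mus 7 and 8, while the other house mouse arrays lacked values elsewhere. The labels do not name such sets. The part of the sets in the results was not tested beyond the values given below.

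Against the mean of the 4 house mouse groups, 1956 of 20754 probes passed the test (limma, Benjamini-Hochberg adjusted p under 0.05), which is 9.42% of the probes tested. Of these, 1169 were higher in spretus (5.63%) and 787 lower (3.79%). Without centring of the arrays, 980 were higher and 981 lower, so the balance of directions depended on how the arrays were centred. The median difference was 0.40 among the higher probes and -0.34 among the lower ones, beside 0.01 over all probes. At least 1.5-fold separated 371 of the called probes, 304 higher and 67 lower. At least 2-fold separated 75 higher and 7 lower probes. The large differences of centred arrays thus lay mostly on the higher side. These 1.5-fold and 2-fold counts were not made on arrays scaled in other ways. Without spretus 2 the count of called probes was 1042, and 867 of the 1956 were among them. Within the set of arrays with the same empty spots, 496 probes were called, 435 of them among the 1956.

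Set against each group apart, spretus gave 1920 called probes against dom (9.25%), 1509 against mus (7.27%), 1148 against ssp (5.53%) and 614 against cas (2.96%). Against dom, 1080 were higher (5.2%) and 840 lower (4.05%). Against mus, 891 were higher (4.29%) and 618 lower (2.98%). Against ssp, 721 were higher (3.47%) and 427 lower (2.06%), and against cas, 423 (2.04%) and 191 (0.92%). The higher side was the larger in each comparison of centred arrays. Uncentred arrays gave 956 higher and 1022 lower against dom, 780 and 728 against mus, 604 and 555 against ssp, and 373 and 224 against cas, so the balance turned for dom. Both sides of the comparison with cas had 3 arrays, and its median standard error was 0.124. These comparisons share the spretus arrays and are not separate tests. Without spretus 2 the counts fell to 1060 against dom, 813 against mus and 677 against ssp. Without cas 1 the count against cas was 387. No dom or ssp array lacked values on the same set of spots as spretus, while every cas array did. The order of the groups thus cannot be told apart from these sets. With the set as a term of the fit, fewer probes were called against dom than against mus, as counted in the last section. The probes called in the same direction against all 4 groups numbered 503 (2.42%), 372 higher and 131 lower, and 333 without cas 1.

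Array by array, 748 probes (3.6%) had all 3 spretus values beyond all house mouse values, 525 above and 223 below, and 691 of them were called. Requiring this and a call against each group left 397 probes, 310 higher and 87 lower. Of those 397, 392 were still called when spretus 2 was left out, though they were chosen with the remaining arrays too. In 390 of them (98.2%) the mean of the house mouse groups lay within 0.2 of the C57BL6 pool, beside 94.5% of all probes tested. A usable gene name was found for 240 of them, 184 genes higher and 52 lower. The 20 with the largest differences, 10 in each direction, are described next. By this choice none of the 20 overlaps with house mice.

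**Figure D1:**
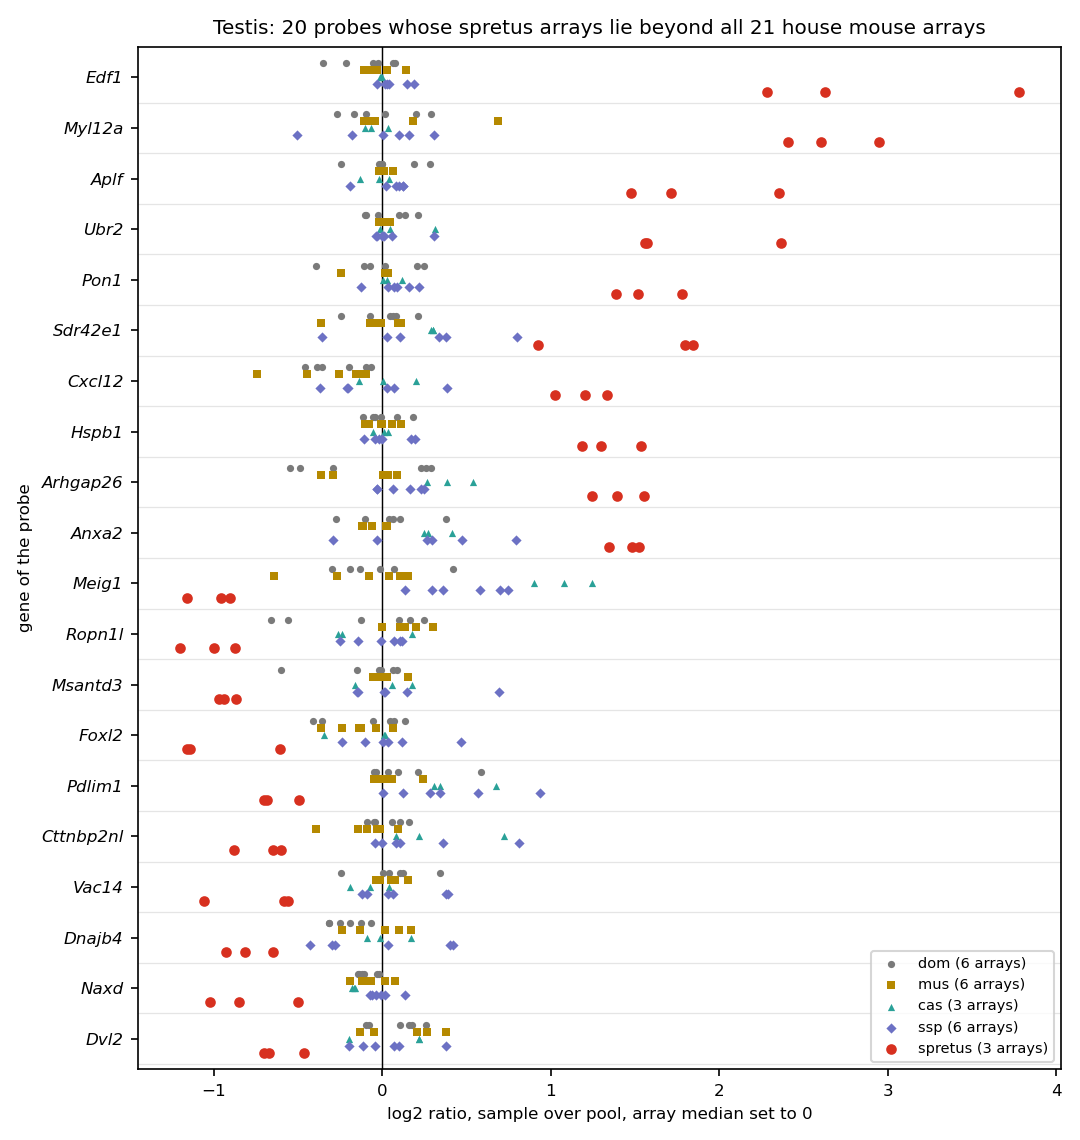
The horizontal axis gives the log2 ratio of mouse over pool in testis, with each array's median at 0, for the probes of 20 genes listed down the vertical axis; each point is 1 array, coloured by group. In every one of the 20 the 3 red spretus points lie outside the range of the 21 house mouse points, as the rule for choosing them required. The margin is widest for Edf1, where spretus lies between 2.28 and 3.78.

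The probes of Edf1 and Myl12a showed the largest differences. Edf1 encodes a transcriptional co-activator that also binds collided ribosomes. Its ratios were 2.28, 3.78 and 2.63 in spretus 1, 2 and 3, and from -0.35 to 0.19 with a median of 0.00 in house mice. The groups did not overlap. The difference was 2.91 ± 0.16 (SE), or 7.5-fold, with an adjusted p of 1.33e-11 in limma. Myl12a encodes a regulatory light chain of non-muscle myosin. Its ratios were 2.61, 2.95 and 2.41 in spretus and -0.51 to 0.69 in house mice, with a median of -0.04. The highest house mouse value was that of mus 7, and all spretus arrays were far above it. The difference was 2.65 ± 0.15, or 6.26-fold (adjusted p = 2.14e-11).

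Aplf and Ubr2 act on DNA breaks and on protein turnover in the nucleus. Aplf assists the joining of broken DNA ends. Its ratios were 1.72, 2.36 and 1.48 in spretus against -0.24 to 0.29 in house mice, and the difference was 1.84 ± 0.11 (3.57-fold, adjusted p = 6.64e-11). Ubr2 is a ubiquitin ligase that mouse spermatocytes need to pass through meiosis. Its ratios were 1.57, 2.37 and 1.56 in spretus against -0.10 to 0.31 in house mice. The spretus arrays were the 3 highest for both probes, and spretus 2 was the highest of all. For Ubr2 the difference was 1.78 ± 0.11 (3.43-fold, adjusted p = 9.84e-11). A second probe of Ubr2 differed by 0.14 and did not pass the test.

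Hspb1 encodes a small heat shock protein that holds damaged proteins in a soluble state. Its probe had the smallest adjusted p of the 20, with ratios of 1.53, 1.19 and 1.30 in spretus and -0.11 to 0.20 in house mice. The difference was 1.33 ± 0.07, or 2.51-fold (adjusted p = 1.17e-11). The house mouse arrays stayed in a narrow band around the pool, and here spretus 2 was the lowest of the 3 spretus arrays. The differences from dom, mus, cas and ssp apart were 1.33, 1.34, 1.34 and 1.31.

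The other probes with higher values belonged to secreted, membrane and metabolic proteins. Pon1, an esterase carried on high density lipoprotein, had ratios of 1.39, 1.78 and 1.52 in spretus against -0.39 to 0.25 in house mice (difference 1.54 ± 0.10, adjusted p = 1.24e-10). Cxcl12, the chemokine ligand of the receptor Cxcr4, had 1.03, 1.34 and 1.20 against -0.74 to 0.38 (difference 1.34 ± 0.13). Anxa2, a calcium-dependent membrane-binding protein, had 1.48, 1.35 and 1.52 against -0.29 to 0.80 (difference 1.31 ± 0.14). In these 3 the spretus arrays lay close together and clear of the house mouse range. The probe of Arhgap26 had 1.24, 1.56 and 1.39 against -0.55 to 0.54 (difference 1.31 ± 0.14), but the 2 other probes of that gene differed by 0.20 and -0.21. Sdr42e1, of the short-chain dehydrogenase family, had 1.85, 0.92 and 1.80 against -0.36 to 0.80 (difference 1.40 ± 0.17), with spretus 2 just above the highest house mouse array, ssp 1. The adjusted p-values of Cxcl12, Anxa2, Arhgap26 and Sdr42e1 were 1.52e-07, 5.16e-07, 9.82e-07 and 3.7e-06.

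On the lower side the probes of Meig1 and Ropn1l had the largest differences of the 10 named. Meig1, which spermatids need to build the microtubule sleeve around their nucleus, had ratios of -1.16, -0.90 and -0.96 in spretus. House mice ranged from -0.64 to 1.24 with a median of 0.13, the 3 cas arrays being the highest. The difference was -1.36 ± 0.15 (2.56-fold lower, adjusted p = 7.65e-07). It was -0.98 against dom, -0.89 against mus, -2.08 against cas and -1.48 against ssp, so its size depended on the group more than for Hspb1. Ropn1l, a protein of the sheath of the sperm tail, had -0.875, -1.20 and -0.995 in spretus against -0.66 to 0.30 in house mice. Its difference was -0.99 ± 0.14 (adjusted p = 3.63e-05), and the lowest house mouse array, dom 6, stayed above all spretus arrays.

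The remaining lower probes were spread over nuclear, signalling and metabolic genes. Naxd, which repairs damaged NADH and NADPH, had the smallest adjusted p among the 10 lower probes. Its ratios were -0.85, -1.02 and -0.50 in spretus against -0.19 to 0.14 in house mice (difference -0.71 ± 0.07, adjusted p = 4.38e-07). Msantd3, named for its SANT domain, had -0.87, -0.97 and -0.94 against -0.60 to 0.69 (difference -0.93 ± 0.13, adjusted p = 2.97e-05). The spretus arrays of Msantd3 were nearly equal, while single house mouse arrays strayed in both directions. Foxl2, a transcription factor best known from ovarian granulosa cells, had -0.60, -1.16 and -1.14 against -0.41 to 0.47 (difference -0.90 ± 0.13, adjusted p = 6.64e-05). Vac14, the scaffold of the complex that makes a signalling lipid of endosomes, had -0.58, -1.06 and -0.56 against -0.24 to 0.39 (difference -0.77 ± 0.11, adjusted p = 4.32e-05). Neither overlapped with house mice.

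Dvl2, a relay of Wnt signals, had ratios of -0.46, -0.70 and -0.67 in spretus against -0.20 to 0.38 in house mice (difference -0.69 ± 0.11, adjusted p = 2.21e-04). Pdlim1, an adaptor of the actin skeleton, had -0.70, -0.68 and -0.49 against -0.05 to 0.94 (difference -0.88 ± 0.14, adjusted p = 1.12e-04). The house mouse arrays of Pdlim1 spread widely, and the highest was ssp 4. Cttnbp2nl, which binds the actin regulator cortactin, had -0.60, -0.88 and -0.65 against -0.39 to 0.81 (difference -0.83 ± 0.13, adjusted p = 1.83e-04). Dnajb4, a partner of the Hsp70 chaperones, had -0.92, -0.82 and -0.65 against -0.43 to 0.42 (difference -0.73 ± 0.13, adjusted p = 7.22e-04). The second probe of Dnajb4 differed by -0.22. Within the spretus set of empty spots, the 20 differences were 0.938 to 1.07 times those over all arrays. Against mus alone in that set 14 of the 20 were called, and against cas alone 15. Meig1 differed there from mus by -0.55 (adjusted p = 0.139), beside -0.89 over all arrays. With arrays set to equal distributions (quantile normalisation), all 20 differences were smaller, and the higher ones moved most. Edf1 then differed by 2.04, Myl12a by 1.90 and Hspb1 by 0.93, while Meig1 differed by -1.34 and Ropn1l by -0.986. Of the 20 probes, 18 stayed called under all 36 alternatives run on them. The 20 were chosen as called and apart from house mice in these same arrays, so neither this count nor the ratios above are a separate check. The Cttnbp2nl call was lost within that set (adjusted p = 0.0509) and the Dnajb4 call with the set as a term of the fit (adjusted p = 0.0994).

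A gene's probes often disagreed, so each value above belongs to a probe. Among 195 genes with several tested probes of which at least 1 was called, all other probes had the same sign in 82. Another probe was called in the same direction in 11 of them and in the opposite direction in 10. Clu, a protein abundant in Sertoli cells, had one probe at 0.65 and another at -0.63. Over the 811 genes with 2 probes, the spretus differences of the probes correlated at -0.0232, a description across genes. How far the probe names hold could be checked only in part. In liver/kidney of the 21 house mice, 4 probes of major urinary protein genes correlated at 0.91 to 0.966 with each other. The 232 pairs of Gapdh spots correlated at a median of 0.178 over all arrays, against -0.00348 for neighbouring pairs.

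The start regions of the named genes are the DNA nearest to their regulation in the sources used here. Windows of 300 bases, 250 before and 50 after the start (RefSeq, GRCm38.p6), were found for 18 of the 20. Those of Hspb1 and Aplf are shown because their letters hold motifs tied to known testis or stress factors, and both genes were chosen after their values were seen. For Hspb1 (chr5:135887669-135887968, plus strand) capitals mark the pair of matches to GAANNTTC, the core of the heat shock element. For Aplf (chr6:87672112-87672411, minus strand) capitals mark TGACGTCA, the cyclic AMP response element bound by the spermatid factor Crem, and a CCAAT box on the other strand. Both are printed 5′ to 3′ on the strand of the gene.
Hspb1: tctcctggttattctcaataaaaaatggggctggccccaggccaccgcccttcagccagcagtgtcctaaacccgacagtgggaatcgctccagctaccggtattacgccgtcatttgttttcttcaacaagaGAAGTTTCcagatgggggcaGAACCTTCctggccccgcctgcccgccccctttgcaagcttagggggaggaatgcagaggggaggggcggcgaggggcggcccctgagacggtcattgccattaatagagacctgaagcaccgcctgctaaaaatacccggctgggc
Aplf: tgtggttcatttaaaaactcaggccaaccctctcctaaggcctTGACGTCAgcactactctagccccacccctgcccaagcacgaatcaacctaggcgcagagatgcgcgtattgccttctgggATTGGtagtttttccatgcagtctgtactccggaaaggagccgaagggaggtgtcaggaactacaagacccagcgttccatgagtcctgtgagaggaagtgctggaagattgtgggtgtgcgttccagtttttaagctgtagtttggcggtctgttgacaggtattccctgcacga

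Both strands were searched for 5 motifs in the windows of 10803 tested genes. GAANNTTC was held by 6.54% of all windows, by 8.38% of the 585 windows of genes called higher and by 8.03% of the 411 of genes called lower. TGACGTCA was held by 2.59% of all, 1.88% of the higher and 2.43% of the lower. TGACGT, which lies inside it, was held by 10.2%, 8.03% and 9.73%. TATAAA was held by 10.8%, 11.5% and 14.6%, and CCAAT by 38.5%, 42.2% and 40.1%. Among the named genes with a window, GAANNTTC was held by 2 of 8 higher and 2 of 10 lower ones. Msantd3, on the lower side, held 2 matches as Hspb1 did. TGACGTCA was held by 1 of 8 and 0 of 10. A match is a description of letters and not a site.

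Gene lists for the cells and pathways of the testis were counted on 13723 genes, each the mean of its probes. Over all of these, 1280 passed the test (9.33%), 764 higher (5.57%) and 516 lower (3.76%), with a median of 0.01. Without spretus 2, 694 genes passed (5.08%). Across the 25 lists, 92 of 1022 different genes were called (9.0%), 44 higher and 48 lower, and 52 without spretus 2 (5.09%). A list's share should be read against these backgrounds. Of 46 further list probes followed through the alternatives, 40 lost their call under at least 1, and not every loss is named below.

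**Figure D2:**
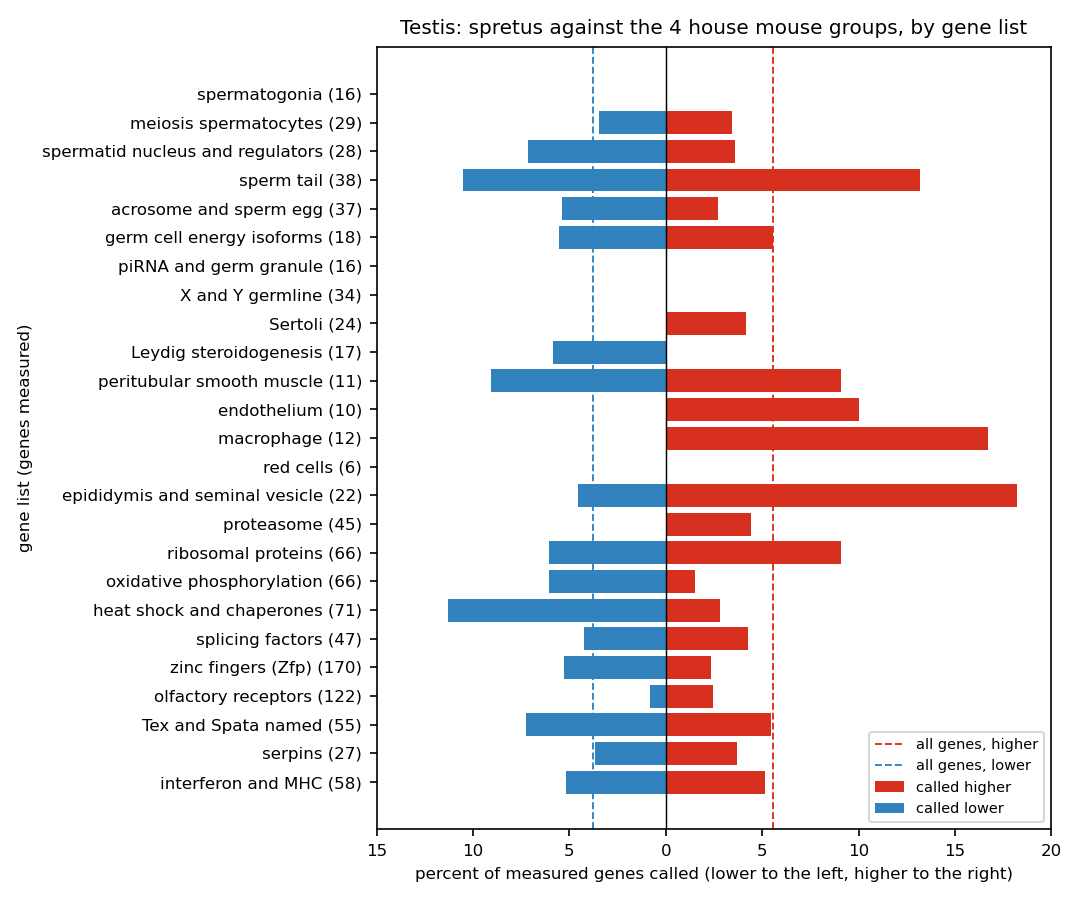
Bars give the percent of the measured genes of each list (number in brackets on the vertical axis) called lower in spretus testis, to the left in blue, or higher, to the right in red; dashed lines mark the share over all 13723 genes, 3.76% lower and 5.57% higher. The sperm tail list has 13.2% higher and 10.5% lower, and the spermatogonia, piRNA, X and Y germline and red cell lists have no bar.

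The sperm tail list, made of axoneme, fibrous sheath and outer dense fibre genes, held 9 called genes of 38 (23.7%), 5 higher and 4 lower, with a median of 0.05. Its lower members were Ropn1l, the dynein light chain Tcte3, the radial spoke protein Rsph1 and the outer dense fibre protein Odf1. The ratios of Tcte3 were -0.67, -0.70 and -0.68 in spretus against -0.56 to 0.57 in house mice, and its difference was -0.68 ± 0.15 (adjusted p = 0.00380). The Tcte3 call was lost under quantile normalisation (limma adjusted p = 0.0757). Rsph1 differed by -0.80 ± 0.18 and Odf1 by -0.35 ± 0.10. For Odf1, spretus 1 and 3 lay inside the house mouse range. The higher members were the testis tubulins Tuba3a (0.35) and Tuba3b (0.34), Spag17 (0.35) of the central pair, Rsph9 (0.26) of the radial spokes and Gas8 (0.25) of the link between dyneins. Tuba3a had 0.37, 0.32 and 0.22 in spretus against at most 0.04 in house mice. Members of the same structure, such as Rsph1 and Rsph9, differed in opposite directions. The counts were 3 higher and 3 lower without spretus 2, 2 and 5 without spretus 1, and 4 and 2 without spretus 3. Odf1, Spag17 and Rsph9 lost their calls without spretus 2.

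Of 28 genes of the spermatid nucleus and its regulators, 1 was higher and 2 were lower (10.7%), with a median of -0.03. Tssk3, a kinase of spermatids, had 0.47, 1.04 and 0.73 in spretus against -0.28 to 0.38 in house mice, with no overlap. Its difference was 0.67 ± 0.10 (adjusted p = 4.32e-05). Meig1 is described above. Prm1, the first of the protamines that replace histones in sperm, was at 0.29, -0.55 and -0.53 in spretus against -0.23 to 0.91 in house mice. Spretus 1 lay inside the house mouse range, the difference was -0.55 ± 0.17 with an adjusted p of 0.0469, and only 11 of 36 alternatives kept the call (adjusted p = 0.348 without spretus 2). Prm2, Tnp1 and Tnp2 did not pass. Their values in spretus 1, 2 and 3 were 0.47, -0.93 and -0.35 for Prm2, 0.61, -0.29 and 0.05 for Tnp1, and 1.14, 0.22 and 0.75 for Tnp2. In all 4 of these nuclear protein genes spretus 1 was the highest and spretus 2 the lowest of the spretus arrays.

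**Figure D3:**
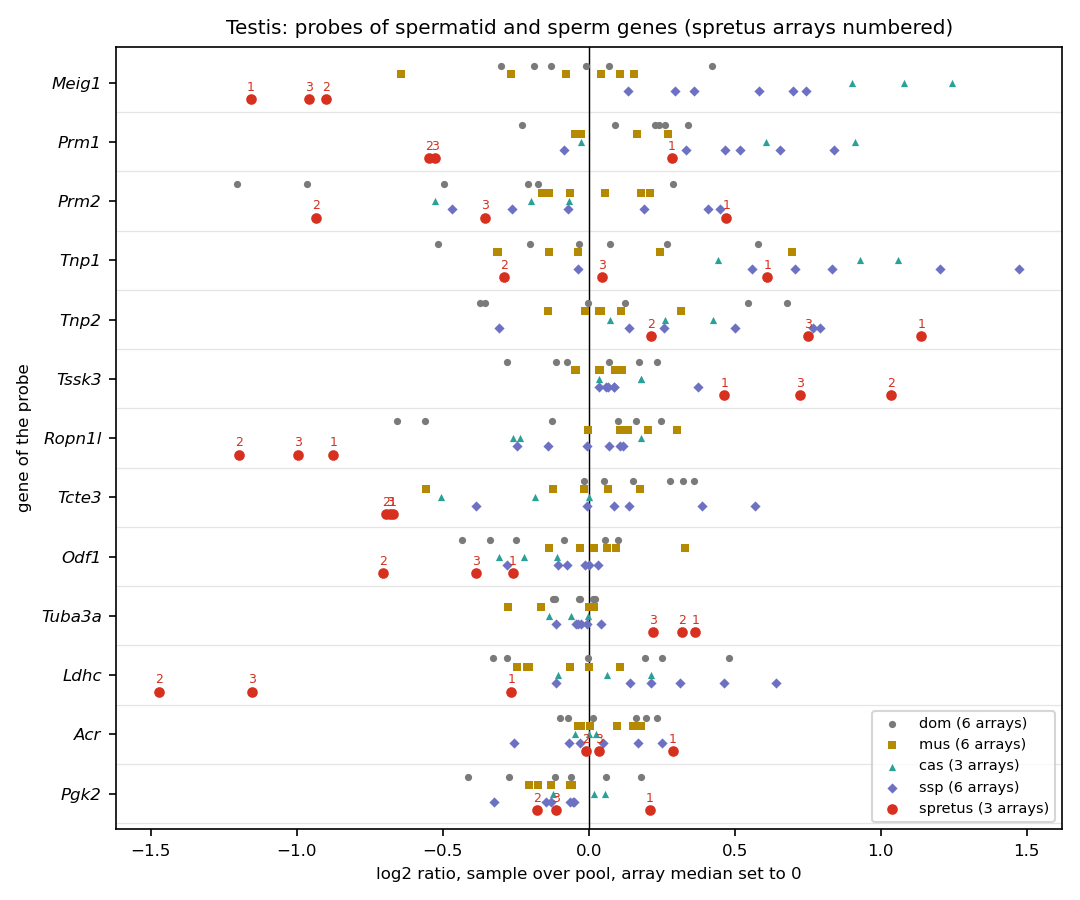
The horizontal axis gives the log2 ratio of mouse over pool in testis for the probes of 13 spermatid and sperm genes, 1 point per array, with the spretus arrays numbered. Meig1, Ropn1l and Tcte3 have the 3 spretus points below all house mouse points and Tssk3 and Tuba3a above them. For Prm2, Tnp1, Tnp2, Odf1, Acr and Pgk2 at least 2 of the 3 lie inside the house mouse range.

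Metabolic enzymes of germ cells held 1 higher and 1 lower gene of 18 (11.1%). The lower one was Ldhc, the lactate dehydrogenase found in spermatocytes and sperm. Its ratios were -0.27, -1.47 and -1.15 in spretus against -0.33 to 0.64 in house mice, so spretus 1 overlapped with house mice and the other 2 did not. The difference was -1.03 ± 0.18 (adjusted p = 3.8e-04), and it missed the threshold within the set of empty spots (adjusted p = 0.0977). Pgk2, the glycolytic kinase of spermatids, differed by 0.07 and did not pass. Glul, glutamine synthetase, had 0.87, 0.55 and 0.43 against -0.44 to 0.33, a difference of 0.72 ± 0.13 (adjusted p = 7.15e-04). Its call was lost under quantile normalisation (limma adjusted p = 0.054).

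The lists of earlier germ cells are short, and their counts are to be read beside the 9.33% of all genes called. In limma 0 of the 16 spermatogonial genes passed, Stra8 and Kit among them, and 0 of 16 piRNA and germ granule genes. Of 34 genes with germ cell roles on the sex chromosomes 0 passed as well. At an unadjusted p under 0.05 the numbers were 1, 2 and 5, beside 3167 of all genes (23.1%). Among 29 meiosis genes 1 was higher and 1 lower (6.9%), and 8 had an unadjusted p under 0.05. Meiob, which binds single-stranded DNA in meiotic recombination, had 0.60, 0.49 and 0.27 in spretus against at most 0.15 in house mice (difference 0.46 ± 0.06, adjusted p = 3.57e-05). Syce3, of the core of the synaptonemal complex, had -0.43, -0.47 and -0.37 against at least -0.30 (difference -0.41 ± 0.08, adjusted p = 0.00121). Both groups of arrays were apart for these 2 probes. Sycp1 and Sycp3, the main proteins of that complex, differed by 0.09 and -0.03 and did not pass. Of 37 genes of the acrosome and of sperm-egg contact, 1 was higher and 2 were lower (8.11%). Gopc, needed to form the acrosome, had one probe at -0.49 ± 0.08 (adjusted p = 3.07e-04), with -0.42, -0.62 and -0.56 in spretus against at least -0.36. Its other probe differed by -0.04 (adjusted p = 0.744), and the mean of both by -0.27. The sperm protease Prss21 differed by -0.42 ± 0.10 and overlapped with house mice. The higher call of Ace, whose testis form sits on sperm, rested on spretus 2, at 1.60 against 0.17 and -0.01 in the others. Without spretus 2 the counts were 0 higher and 1 lower, and Prss21 was no longer called (adjusted p = 0.121). The acrosomal protease Acr differed by 0.07 and did not pass.

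Somatic cells of the testis were measured by lists of their markers. Of 24 Sertoli genes 1 passed (4.17%), Sox9, at 0.37, 0.34 and 0.37 in spretus against a highest house mouse value of 0.33. Its difference was 0.30 ± 0.07 (adjusted p = 0.00838), and Amh differed by 0.00. Sox9 kept its call in 32 of 36 alternatives and lost it under quantile normalisation (limma adjusted p = 0.34). Of 17 Leydig genes 1 passed, Fdx1, the electron donor of steroid synthesis, at -0.27 ± 0.07, and without spretus 2 it did not (adjusted p = 0.201). Only 3 of the 17 lay above 0, and the list's mean was -0.02, -0.11 and -0.07 in spretus 1, 2 and 3, against -0.02 to 0.11 in house mice. Star, Cyp17a1 and Insl3 differed by -0.01, -0.15 and -0.03 and did not pass. Of 11 genes of the muscle-like cells around the tubules, 1 was higher and 1 lower. Myh11, the smooth muscle myosin heavy chain, had 1.04, 1.82 and 1.07 in spretus against at most 0.96 in house mice (difference 1.08 ± 0.20, adjusted p = 9.14e-04). The Myh11 call was lost under quantile normalisation (limma adjusted p = 0.272). Itga9, an integrin, differed by -0.34 ± 0.05.

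Cells of vessels, blood and neighbouring organs were counted in the same way. The endothelial receptor Tek was the only called gene of 10, at 0.54 ± 0.09. Of 12 macrophage genes 2 passed, Mrc1 at 0.40 ± 0.08 and C1qa at 0.31 ± 0.09, and 10 of the 12 lay above 0. C1qa had an adjusted p of 0.0649 without spretus 2, and Mrc1 had a limma adjusted p of 0.13 under quantile normalisation. The mean of the macrophage list was 0.06, 0.13 and 0.10 in spretus 1, 2 and 3, inside the house mouse range of -0.13 to 0.14. Of 6 red cell genes 0 passed in limma, and 0 did at an unadjusted p under 0.05. The epididymis and seminal vesicle list, made of genes of organs joined to the testis by ducts, had 4 higher and 1 lower gene of 22 (22.7%), with a median of 0.11. Its mean was 0.10, 0.17 and 0.05 in spretus 1, 2 and 3 against -0.10 to 0.06 in house mice, and 14 of the 22 lay above 0. Pate4, a seminal vesicle secretion, had 0.41, 0.85 and 0.68 in spretus against at most 0.25 in house mice (difference 0.64 ± 0.08, adjusted p = 7.21e-06). The protease inhibitor Eppin was at 1.94 in spretus 2, and at -0.02 and 0.39 in the other 2. Defb30, a defensin of the epididymis, differed by 0.47 ± 0.11 and Spink1 by 0.20, while the secretion gene Svs5 was lower by a difference of -0.37. Without spretus 2 the counts were 1 higher and 1 lower, and Defb30, Eppin and Spink1 were no longer called. Its part in other results was not tested.

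Lists of general cell machinery showed single members with large differences beside many near 0. Of 45 proteasome genes 2 were higher (4.44%). Psma7, a subunit of the catalytic core, had 1.15, 1.29 and 1.13 in spretus against at most 0.50 in house mice, a difference of 1.17 ± 0.11 (adjusted p = 6.76e-08). The list's median was -0.02. Psmd4, a ubiquitin receptor of the regulatory cap, differed by 0.49 ± 0.14 and lost its call without spretus 2 (adjusted p = 0.0732). Of 66 ribosomal protein genes 6 were higher and 4 lower (15.2%), with a median of 0.01. Rps21 had 0.73, 0.92 and 0.88 against at most 0.39 (difference 0.76 ± 0.08, adjusted p = 2.9e-07). Rps14 differed by 0.96 ± 0.25, and Rpl39 and Rps24 by -0.50 and -0.49. Without spretus 2 the ribosomal counts were 3 higher and 1 lower, and Rpl39 and Rps24 were no longer called. Of 66 genes of oxidative phosphorylation 1 was higher and 4 were lower (7.58%), led by the ATP synthase subunit Atp5j2 at -0.44 ± 0.08, and without spretus 2 the counts were 1 and 1. Of 47 splicing factor genes 2 were higher and 2 lower (8.51%), with Srsf5 at -0.40 ± 0.07, and 1 and 1 without spretus 2.

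Heat shock proteins and chaperones held 2 higher and 8 lower genes of 71 (14.1%), with a median of -0.04. Beside Hspb1, Hspa13 was higher at 0.31 ± 0.08. The lower members included the chaperones of the endoplasmic reticulum Hspa5 (-0.30) and Dnajb11 (-0.45), the chaperonin subunit Cct6a (-0.27), and the Hsp70 partners Dnajb4, Dnajc12, Dnajc7 and Dnajb8. Hsf4, a heat shock transcription factor, differed by -0.28. Hspb1 thus stood on the opposite side from most called members of its list. The counts were 1 and 3 without spretus 2, where Hspa13, Hspa5, Cct6a, Dnajc12, Dnajc7, Dnajb8 and Hsf4 were not called, 1 and 7 without spretus 1, and 2 and 6 without spretus 3.

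Other large families were counted as well. Of 170 zinc finger genes named Zfp, 4 were higher and 9 lower (7.65%), with Zfp248 at 0.80 ± 0.14 and Zfp296 at 0.76 ± 0.13 and no overlap with house mice for either. Zfp248 and Zfp296 lost their calls under quantile normalisation (limma adjusted p = 0.293 and 0.102). The Zfp counts were 3 higher and 2 lower without spretus 2. Of 122 olfactory receptor genes 3 were higher and 1 lower (3.28%), and of 27 serpins 1 was higher and 1 lower (0 and 1 without spretus 2). Of 58 interferon and MHC genes 3 were higher and 3 lower (10.3%), with Ifitm5 at 0.42 ± 0.06 and Ifi47, a GTPase induced by interferon, at -0.60 ± 0.15. Without spretus 2 these counts were 2 and 0, and Ifi47 was not called (adjusted p = 0.153). Among 55 genes named for testis expression or spermatogenesis (Tex, Spata and the like), 3 were higher and 4 lower (12.7%), and 3 and 1 without spretus 2. Tex38 had 1.26, 1.63 and 0.94 in spretus against at most 0.71 in house mice (difference 1.14 ± 0.20), and Tex45 had 0.69, 0.46 and 0.78 against at most 0.40 (difference 0.62 ± 0.09). Both probes had all spretus arrays above the house mice, but the Tex38 call was lost under quantile normalisation (limma adjusted p = 0.0834).

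By chromosome, the share of called probes ran from 7.38% on chromosome 19 to 11.4% on chromosome 17, beside 9.43% of the 14774 named probes with a place. On the X chromosome 26 probes were higher and 15 lower of 499 (8.22%). On the Y chromosome 1 of 13 was lower. The X and Y shares lay inside the range of the other chromosomes.

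The same animals' brain and liver/kidney arrays showed whether a testis difference was shared. Spretus differed from the 4 groups in brain for 3.94% and in liver/kidney for 7.49% of the probes tested in testis. Of the 1956 probes called in testis, 161 (8.23%) were called in the same direction in brain, 161 (8.23%) in liver/kidney and 51 in both, while 6 and 22 were called in the opposite direction. The difference between tissues was tested directly. It passed for 610 probes between testis and brain (2.96%) and for 1231 between testis and liver/kidney (5.98%). The second count was 679 without spretus 2. In brain the title of mus 8 names mus and its channel label domesticus. It was kept in mus, and without it the counts were 617 and 1246. Of the 1956, 302 (15.4%) differed from both other tissues, 257 of the 1169 higher probes and 45 of the 787 lower ones. The 1956 were chosen by their testis values, which enter both tests, and the share over all probes was not counted.

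**Figure D4:**
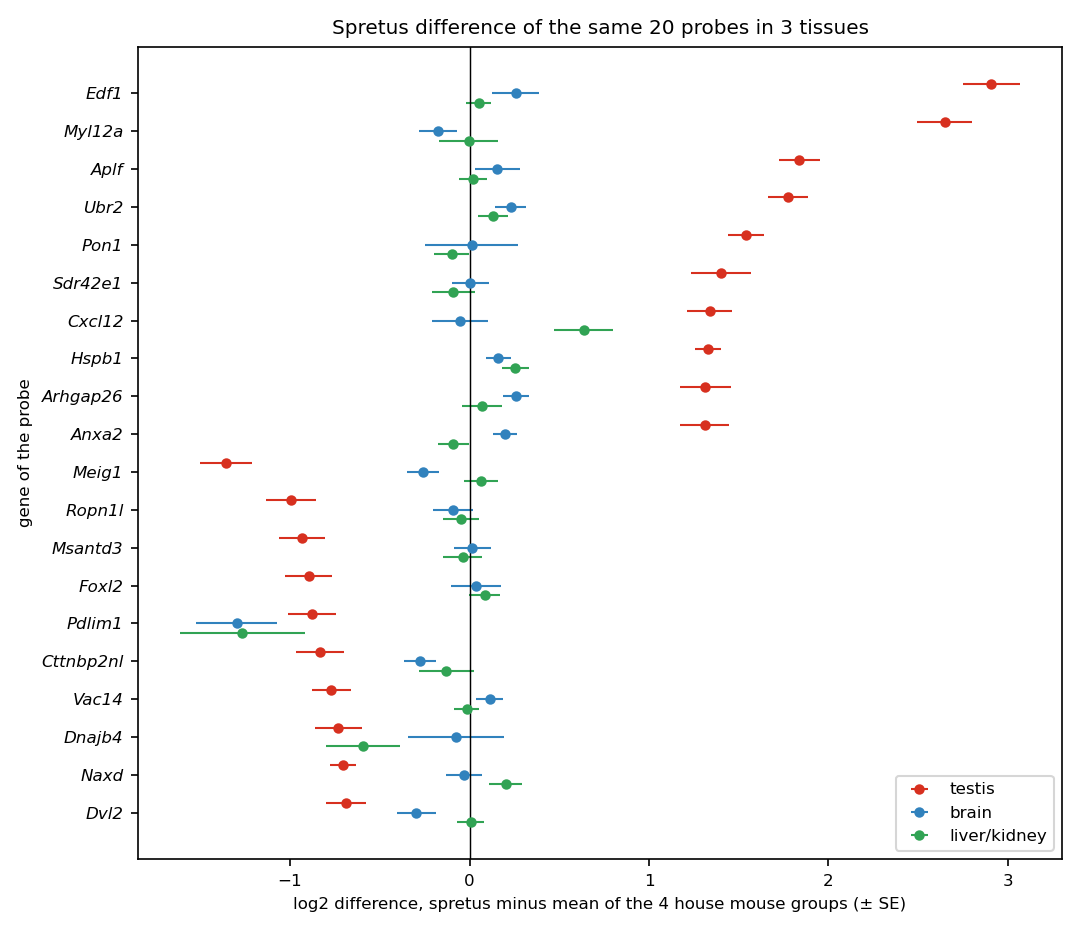
The horizontal axis gives the log2 difference of spretus from the mean of the 4 house mouse groups, with its standard error, for the 20 named probes in testis (red), brain (blue) and liver/kidney (green). Most brain and liver/kidney points lie near 0, and Pdlim1 lies at -0.88 or lower in all 3 tissues.

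Among the 20 named probes, 16 differed from both tissues by the test of the difference, and Pdlim1, Cttnbp2nl, Dnajb4 and Dvl2 missed it for at least 1 tissue. The 20 were chosen for large testis differences, which also enter that test. Their count therefore cannot show how often differences are particular to testis. Edf1 differed by 0.26 in brain and 0.05 in liver/kidney, and neither passed the test there. Myl12a differed by -0.18 and 0.00 in those tissues. Few of the 20 passed the test in another tissue. They were Pdlim1, at -1.30 in brain (adjusted p = 0.00161) and -1.27 in liver/kidney (adjusted p = 0.0271), Cxcl12, at 0.64 in liver/kidney (adjusted p = 0.0173), Hspb1, at 0.26 in liver/kidney (adjusted p = 0.0342), and Arhgap26, at 0.26 in brain (adjusted p = 0.0458). The Pdlim1 probe thus gave low spretus ratios in every tissue measured. How well the probes match spretus transcripts was not tested.

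The probes with the largest tissue differences that were also called in testis included several outside those 20. Rsrp1, a nuclear protein rich in arginine and serine, had -1.39, -2.12 and -1.81 in spretus testis against -1.49 to 0.34 in house mice, where 1 array reached the spretus range. Its difference was -1.46 ± 0.24 in testis (adjusted p = 2.02e-04), and testis minus brain and testis minus liver/kidney came to -1.54 and -1.63, neither of which passed without spretus 2. Ldhc differed from brain by -1.13 and from liver/kidney by -1.14, and Meig1 by -1.10 and -1.42. The calls of Zbtb14 and Col25a1 rested on spretus 2. Zbtb14, a zinc finger repressor, had -0.09, 4.53 and 0.16, and the collagen gene Col25a1 had 0.25, 3.21 and no value in spretus 3. Hoxd10, a homeobox gene of limb and kidney regions, was higher in spretus in all 3 tissues, by 0.48 in testis, 0.93 in brain and 1.76 in liver/kidney, with a testis minus liver/kidney difference of -1.28 (adjusted p = 1.64e-06). Its testis ratios were 0.89, 0.26 and 0.09 in spretus against at most 0.47 in house mice, so only spretus 1 lay above them. In testis Hoxd10 was not called against mus (limma adjusted p = 0.0763) or cas (adjusted p = 0.268).

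Expression divergence summed these differences over all probes, as the mean squared log2 difference of 2 groups less the part added by the spread between arrays. Between spretus and dom it was 0.0356 ± 0.013 (jackknife SE), between spretus and mus 0.0324 ± 0.011, between spretus and cas 0.0237 ± 0.0077, and between spretus and ssp 0.0235 ± 0.0084. Pairs of house mouse groups lay between -0.000676 ± 0.0055 for cas and ssp and 0.0107 ± 0.0099 for dom and cas. Each pair with spretus was above each pair of house mouse groups, and the pairs with spretus differed among themselves by less than the largest of their errors. With arrays set to equal distributions, the pairs with spretus ran from 0.0138 to 0.0196 and those among house mice from 0.00168 to 0.0148, so the 2 ranges then overlapped.

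**Figure D5:**
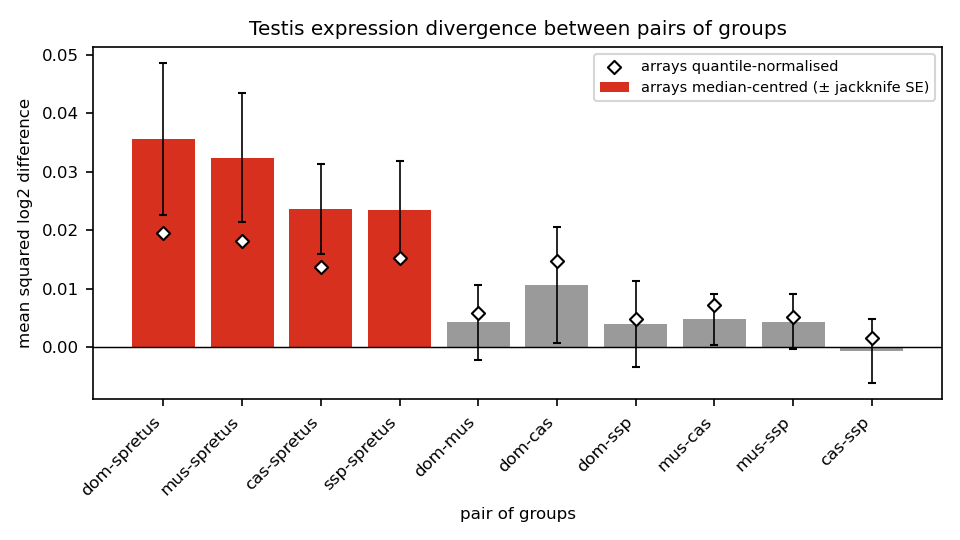
Bars give the mean squared log2 difference between each pair of groups in testis, less the part added by the spread between arrays, with jackknife standard errors; pairs with spretus are red and pairs of house mouse groups grey, and diamonds give the values after quantile normalisation. Pairs with spretus run from 0.0235 to 0.0356 as centred, and the cas and spretus diamond at 0.0138 lies below the dom and cas diamond at 0.0148.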

How the data were processed

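The deposited values are log ratios that the authors computed from 2-channel arrays, 1 mouse against the C57BL6 pool on each. Per the labels, channel 2 held the mouse and channel 1 the pool. Neither the base of the logarithm nor the direction of the ratio is given in the sources used here, nor are the scanner, background correction, normalisation and genome build. The deposited values were read as log2 of mouse over pool. The deposited medians of the testis arrays lay between -0.02 and 0.055. No probe sequences were used, so the match of probes to spretus transcripts was not tested for higher or lower ratios.

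Neighbouring duplicate spots were averaged (22320 pairs), 1488 single spots were dropped, 232 pairs of a Gapdh control were merged into 1 probe, and each array was centred on its median. Of 22089 probes, 15801 had 1 gene symbol, 294 several and 5994 none. The 20754 probes with at least 2 values in every group entered lmFit and eBayes of limma (version 3.58.1, R 4.3.3, with the data.table package, version 1.17.8), with 1 coefficient for each of the 5 groups. Two-sided p-values were adjusted by the Benjamini-Hochberg method over all probes, with a threshold of 0.05. The differences between tissues came from a limma fit to the 72 arrays of every tissue, in which the animal was a random block (consensus correlation 0.02). Lists were counted on the mean of a gene's probes, over 13723 genes. Counts and figures used matplotlib 3.10.9, numpy 2.4.6 and pandas 2.3.3 under Python 3.11.15.

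Named genes are, in each direction, the 10 largest differences among called probes whose spretus arrays lay beyond all house mouse arrays and that were called the same way against each of the 4 groups. Probes without a single gene name were passed over, as were RIKEN clones, Gm models, expressed sequences, LOC names and pseudogenes. The 3 called members with the lowest p in a list, and up to 3 tissue differences in each direction, were added. Other names were chosen after their values were seen. The genes, lists and tests were chosen with earlier results of these data known.

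The fit was tested on simulated data for spretus against the mean of the 4 groups over 20754 probes. It recovered 84 of 100 probes changed 1.5-fold and 97 of 100 changed 2-fold, with 9 calls among unchanged probes. The simulated noise was independent between arrays, with 1 spread per probe for all groups. It held no differences among house mouse groups, no effect of the sets of empty spots and no wider spretus 2. These rates were thus not tested for arrays with such features. The alternatives were scaling, weights, filters, single spots, blocks, the fit of 2 groups alone and leaving out arrays. Animal numbers in the titles did not pair arrays: the 27 pairs of arrays with equal numbers in different groups correlated at a median of -0.0343 after group means were removed (-0.185 to 0.323). The p-values rest on the spread between single mice within groups, each mouse measured on 1 array. That spread was 1 estimate per probe, pooled over the 5 groups and moderated across probes, and most arrays were of house mice. It can be narrower than the spread of the spretus arrays alone. For Edf1 the standard deviation was 0.784 in spretus and at most 0.167 in a house mouse group.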

Additional observations from a re-analysis of the deposited data

Results flagged for a closer look

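In 8 of 60 groups of house mouse arrays tested for the 20 named probes, 1 array stood apart from the rest of its group by Dixon's criterion, which chance gives in about 5% of groups. For Myl12a, mus 7 was at 0.689 while the other mus arrays lay between -0.11 and 0.18. For Aplf, mus 4 was at 0.063 (others -0.02 to 0.01) and ssp 5 at -0.192 (others 0.02 to 0.13). For Ubr2, ssp 2 was at 0.309 (others -0.04 to 0.06). For Pon1, mus 5 was at -0.246 (others 0.02 to 0.04). For Msantd3, dom 13 was at -0.601 (others -0.15 to 0.09) and ssp 4 at 0.692 (others -0.15 to 0.15). For Pdlim1, mus 4 was at 0.24 (others -0.05 to 0.06). None of these arrays reached the spretus arrays of the same probe, which the rule for naming the 20 required.

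The spretus difference in testis departed from that in brain for 610 probes and from that in liver/kidney for 1231, by a test of the difference. Among the probes named by the rule for tissue differences, those with a larger upward difference in testis were Myl12a (by 2.823 over brain and 2.651 over liver/kidney), Edf1 (2.65 and 2.857), Zbtb14 (1.904 and 1.805) and Col25a1 (1.875 and 1.959). Downward, the differences were Rsrp1 -1.542 and -1.625, Ldhc -1.132 and -1.139, and Meig1 -1.1 and -1.42. Tac4, a tachykinin precursor, stood at -1.231 against brain, where spretus 2 alone was at 2.41. Hoxd10 stood at -1.281 against liver/kidney. Without spretus 2, those of Zbtb14, Rsrp1 and Tac4 did not pass.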

How the results depend on the processing

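Called probes against the mean of the 4 groups numbered 486 after quantile normalisation, 785 with the set of empty spots as a term and 496 within the spretus set (3444 there at an unadjusted p under 0.05). Quantile normalisation gave 590 against dom, 433 against mus, 131 against cas, 291 against ssp, 95 against each group, 312 beyond all house mouse arrays, 291 and 445 for testis against brain and liver/kidney, and divergences from spretus of 0.0196 for dom, 0.0182 for mus and 0.0138 for cas. The set as a term gave 371 against dom, 783 against mus and 281 against ssp; as a random block, 1065 against dom and 621 against ssp. Within the set there were 275 against mus and 248 against cas. Fits of 2 groups alone gave 772 against dom, 128 against cas and 443 against ssp. Array weights raised the counts to 2542 against mus, 1204 against cas and 1797 against ssp. The replicate block on the numbers in the titles, which did not pair arrays, gave 1084, with 712 against dom, 484 against mus and 619 against ssp. The causes were not tested.

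Leaving out 1 array at a time gave 1042 (without spretus 2) to 2347 against the mean, 1060 to 2518 against dom and 813 to 1838 against mus. It gave 387 (without cas 1) to 821 against cas, 677 to 1499 against ssp, and 333 to 695 against each group. The count beyond all house mouse arrays ran from 753 to 1483, but leaving out an array can only keep or raise it, so this range is no check. Leaving out 1 spretus array gave 511 to 572 for testis against brain, 679 to 1276 for testis against liver/kidney, and 52 to 111 list genes. Of 268 alternatives to counts and divergences, 227 stayed within 1.5 times or 1 standard error, though the divergence of cas and ssp went from -0.000676 to 0.00168 under quantile normalisation. None of the 2364 alternatives for named probes changed a sign, but these probes were chosen by their calls in the same data. Of 46 further list probes, 40 lost their call under at least 1 alternative. The number of arrays, 3 of spretus, limits the precision.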
